A study of Mus musculus with 12 samples.

Results

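The circadian clock genes described here are 10 genes of the core clock loop and its first outputs, measured by RNA-seq in whole tibialis anterior, a fast muscle of the lower hindlimb. They are the activators Arntl (also called Bmal1) and Clock, the repressors Per1, Per2, Per3 and Cry2, the nuclear receptors Nr1d1 and Nr1d2, and the PAR bZIP transcription factors Dbp and Tef. They were taken by symbol from the 12752 rows of the count table, and all 10 were found and all 10 passed the filter on low counts. Every muscle came from a male C57BL/6 mouse. At 8 weeks of age each muscle was given AAV:TET, the viral vector of the doxycycline switch. One limb also received an empty vector (AAV:MCS), and the muscle of the opposite limb received AAV:Dux. Dux encodes a double homeobox transcription factor of early mouse embryos, and its human relative DUX4 is switched on wrongly in facioscapulohumeral muscular dystrophy. From 7 days after injection the mice ate normal chow or chow with 600 mg/kg doxycycline. The 4 groups of 3 libraries are empty vector on normal chow (EV), Dux vector on normal chow (DUX), empty vector on doxycycline chow (EV_DOX) and Dux vector on doxycycline chow (DUX_DOX).

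The labels give 2 or 7 days on the second chow and a range of vector doses, and not which applied to these libraries. They also say that some muscles of the study had AAV:MyoPro beside AAV:Dux. The mice lived in 12 h of light and 12 h of dark, and the time of day at which they were killed is not given in the sources used here. Clock transcripts move over the day, so in the comparisons between chows a change in these genes and a difference in sampling time cannot be told apart here. Opposite limbs of 1 mouse share their sampling time, but the labels do not say which libraries come from the same mouse, and the part of sampling time in the vector comparisons was not tested.

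In the mammalian clock, Arntl and Clock form a dimer that binds E-box sequences and activates the Per and Cry genes, whose proteins then block the dimer. The same dimer drives Nr1d1 and Nr1d2, which repress Arntl through ROR response elements (RREs), and Dbp and Tef, which activate genes through D-boxes. Arntl RNA therefore peaks at the time of day at which Dbp and the Nr1d genes are low. In skeletal muscle the clock is known for its daily control of fuel use and of transcripts of the contractile and metabolic programme, and Per1 is also induced directly by glucocorticoids and by cAMP signalling.

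Library totals ran from 11880593 to 13811999 counts, and a member had 91 to 3882 counts in a library. The switch was read from AW822073, a transcript beside the Dux gene, which had 37 to 60 counts in each DUX_DOX library and 0 to 2 in each of the other 9, and from Tmem92, with 1123 to 2339 counts against 0 to 4. Reads of Dux are not analysed here. All 5 skeletal fibre markers (Ckm, Acta1, Myh4, Tnnt3, Mb) were abundant, with a summed level of 88200 to 99000 CPM (read counts scaled to a common library total) in DUX_DOX and 103000 to 120000 CPM in the other 9 libraries. In bulk muscle, fewer cells of a type and less RNA per cell cannot be told apart. The tenocyte markers stood apart in EV 3 and EV_DOX 1, with sums of 1010 and 931 CPM against 105 to 317 CPM elsewhere.

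On GRCm38, with the gene models of GENCODE M21, all 10 members are protein-coding genes. The activators are Arntl (ENSMUSG00000055116) at chr7:113207465-113314126 on the plus strand and Clock (ENSMUSG00000029238) at chr5:76209868-76304792 on the minus strand. The repressors are Per1 (ENSMUSG00000020893) at chr11:69095217-69109960 on the plus strand, Per2 (ENSMUSG00000055866) at chr1:91415982-91459324 on the minus strand, Per3 (ENSMUSG00000028957) at chr4:151003652-151044665 on the minus strand and Cry2 (ENSMUSG00000068742) at chr2:92403646-92434043 on the minus strand. The nuclear receptors are Nr1d1 (ENSMUSG00000020889) at chr11:98767932-98775333 on the minus strand and Nr1d2 (ENSMUSG00000021775) at chr14:18204054-18239127 on the minus strand. The PAR bZIP factors are Dbp (ENSMUSG00000059824) at chr7:45705088-45710203 on the plus strand and Tef (ENSMUSG00000022389) at chr15:81802421-81826863 on the plus strand.

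Per kilobase of exon, and averaged over the 12 libraries, Nr1d1 was the most abundant member at 60.2 CPM per kb, followed by Tef at 32.5, Dbp at 26.1 and Nr1d2 at 22.8 CPM per kb. Per1 stood in the middle at 11.7 CPM per kb. Cry2 had 5.86, Per3 3.71, Clock 2.63, Per2 2.05 and Arntl 1.72 CPM per kb. The outputs and receptors were thus far above the activators on this scale. Arntl was the lowest member and also the one with the widest range, 3.18-fold between its lowest library (EV_DOX 3) and its highest (DUX_DOX 2). Nr1d1 and Clock had the narrowest ranges, 1.52-fold and 1.54-fold.

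The regulatory letters of the loop can be read in the promoters of several members. Promoters of 300 bases, from 250 before to 50 after an annotated start, were taken from RefSeq on GRCm38.p6 and matched 9 of the 10 members in 14 promoters. They were searched on both strands for the E-box CACGTG, the D-box TTATGTAA or TTACGTAA, the RRE ANTAGGTCA or ANTAGGTTA and the cAMP response element (CRE) core TGACGTC. The sequences below belong to the members whose counts moved most and hold a match, which is in capitals. Arntl on chr7:113207261-113207560 (plus strand) has RREs at -8 and 28 from its start, Per1 has an E-box at -166 of chr11:69098699-69098998 and a CRE at -132 of chr11:69099902-69100201 (both plus strand), Per3 has D-boxes at -205 and -158 of chr4:151044616-151044915 (minus strand), and Tef has an E-box at -138 of chr15:81811164-81811463 (plus strand).
Arntl promoter 2: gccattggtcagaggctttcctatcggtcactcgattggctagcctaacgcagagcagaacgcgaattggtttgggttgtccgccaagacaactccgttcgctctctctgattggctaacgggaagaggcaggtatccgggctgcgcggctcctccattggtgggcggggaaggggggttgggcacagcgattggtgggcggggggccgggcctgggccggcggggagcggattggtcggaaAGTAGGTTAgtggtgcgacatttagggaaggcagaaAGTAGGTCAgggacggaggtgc
Per1 promoter 1: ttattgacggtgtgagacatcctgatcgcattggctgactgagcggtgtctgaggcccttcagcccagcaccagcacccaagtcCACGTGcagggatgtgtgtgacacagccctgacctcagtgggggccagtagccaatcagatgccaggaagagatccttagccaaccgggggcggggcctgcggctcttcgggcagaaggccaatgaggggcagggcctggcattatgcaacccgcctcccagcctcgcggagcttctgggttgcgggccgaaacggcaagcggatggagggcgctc
Per1 promoter 2: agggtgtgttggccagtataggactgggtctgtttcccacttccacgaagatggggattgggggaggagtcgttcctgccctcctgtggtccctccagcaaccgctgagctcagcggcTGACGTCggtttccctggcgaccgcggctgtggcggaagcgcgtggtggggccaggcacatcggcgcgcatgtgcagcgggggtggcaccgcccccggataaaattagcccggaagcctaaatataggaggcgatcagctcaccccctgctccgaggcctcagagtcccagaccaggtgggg
Per3 promoter 1: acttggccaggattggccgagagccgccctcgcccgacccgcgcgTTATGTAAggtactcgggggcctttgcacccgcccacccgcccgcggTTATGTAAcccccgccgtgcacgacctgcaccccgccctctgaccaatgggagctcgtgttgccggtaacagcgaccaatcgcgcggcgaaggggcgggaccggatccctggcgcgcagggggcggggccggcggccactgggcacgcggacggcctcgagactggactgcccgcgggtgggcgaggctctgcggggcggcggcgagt
Tef promoter 2: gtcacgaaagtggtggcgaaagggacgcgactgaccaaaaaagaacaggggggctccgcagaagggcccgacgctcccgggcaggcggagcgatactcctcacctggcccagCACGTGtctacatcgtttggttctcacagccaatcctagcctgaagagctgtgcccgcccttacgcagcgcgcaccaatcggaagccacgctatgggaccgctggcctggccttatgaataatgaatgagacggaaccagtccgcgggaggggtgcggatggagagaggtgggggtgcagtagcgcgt

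Over all 32851 promoters of this length, 7.15% held the E-box, 1.06% the D-box, 1.04% an RRE and 3.21% the CRE core. Counted by gene, with a match in any promoter of the gene, the shares were 8.09%, 1.23%, 1.17% and 3.60% of 27025 genes. Among the 9 members matched, the E-box was found in Per1 and Tef, the D-box in Per3, the RRE in Arntl and the CRE core in Per1. No match lay in the windows of Clock, Cry2, Nr1d1, Nr1d2 and Dbp, which says only that these letters are not in those 300 bases. A match is a description of the sequence and not evidence of binding in these muscles.

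The first comparison asks what Dux does in muscle on doxycycline chow, DUX_DOX against EV_DOX. The clock genes did not move in a single direction. Of the members, 2 rose (Per1 and Arntl), 3 fell (Per3, Nr1d2 and Tef) and 5 did not pass the test (edgeR's quasi-likelihood test, Benjamini-Hochberg adjusted p under 0.05 over 12751 genes). Across all genes 25.3% passed, 14.9% as higher and 10.3% as lower. The groups did not overlap in the same 5 members, against 38.7% of all genes. The median log2 fold change of the 10 members was -0.11, and that of all genes -0.01.

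Among the repressors, Per1 moved most. Its level was 109.3, 110.3 and 88.6 CPM in DUX_DOX libraries 1, 2 and 3, and 45.3, 51.2 and 61.4 CPM in EV_DOX, while EV had 47.4, 57.4 and 47.2 CPM and DUX 59.5, 58.6 and 52.6 CPM. All 3 DUX_DOX libraries lay above all 9 others, whose groups overlap each other. The rise over EV_DOX was 1.95-fold (log2 0.97, SE 0.122, edgeR adjusted p = 5.87e-05), and Per1 was called under each of the 24 alternatives computed for this comparison.

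Per3, another PER repressor, went the other way. It had 27.6, 23.9 and 21.6 CPM in DUX_DOX and 47.0, 30.4 and 45.1 CPM in EV_DOX, beside 42.9, 38.4 and 48.0 CPM in EV and 29.2, 37.7 and 36.0 CPM in DUX. Every DUX_DOX library was below every other library, with EV_DOX 2 and DUX 1 nearest to them. Per3 fell by 40.3% (log2 -0.74, SE 0.157, edgeR adjusted p = 0.00342). Without the 4 libraries numbered 3 the call was lost, at log2 -0.59 with adjusted p = 0.0930.

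Per2 and Cry2, the other repressors, did not pass. Per2, a partner of the cryptochromes, had 12.4, 9.58 and 14.7 CPM in DUX_DOX and 16.0, 8.52 and 17.2 CPM in EV_DOX, and the groups overlap (log2 -0.19, SE 0.227, adjusted p = 0.579). Cry2, a cryptochrome that blocks the activator dimer, had 38.3, 41.6 and 45.5 CPM against 46.4, 30.0 and 36.9 CPM (log2 0.15, SE 0.141, adjusted p = 0.479). EV_DOX alone spans a wider range than DUX_DOX in both genes.

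Of the activators, Arntl rose and Clock did not pass. Arntl stood at 15.3, 23.4 and 17.4 CPM in DUX_DOX, 8.61, 14.5 and 7.36 CPM in EV_DOX, 9.80, 13.3 and 8.36 CPM in EV and 14.4, 15.3 and 7.92 CPM in DUX. DUX_DOX was above the rest, though DUX_DOX 1 and DUX 2 are equal at the digits printed. The rise over EV_DOX was 1.84-fold (log2 0.88, SE 0.274, edgeR adjusted p = 0.0295), and it rests on few libraries: adjusted p was 0.0768 without EV_DOX 1, 0.106 without EV_DOX 3, 0.130 without DUX_DOX 2 and 0.0604 without DUX_DOX 3, in a range of 0.00188 to 0.130 over the alternatives. Clock, the dimer partner of Arntl, had 34.4, 38.4 and 30.4 CPM in DUX_DOX and 38.6, 32.8 and 30.4 CPM in EV_DOX, with log2 0.02 (SE 0.115, adjusted p = 0.919).

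The nuclear receptors Nr1d1 and Nr1d2 (REV-ERB alpha and beta), which share the role of repressing Arntl, gave different readings. Nr1d2 had 91.5, 92.1 and 78.1 CPM in DUX_DOX against 135.6, 119.4 and 128.0 CPM in EV_DOX, 131.1, 116.8 and 130.2 CPM in DUX and 158.6, 141.0 and 155.6 CPM in EV. All DUX_DOX libraries were below the other 9, DUX and EV_DOX overlapped, and EV was highest. Nr1d2 fell by 31.7% from EV_DOX (log2 -0.55, SE 0.0895, edgeR adjusted p = 0.000514), a call kept under all 24 alternatives.

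Nr1d1 had 189.8, 147.2 and 159.7 CPM in DUX_DOX and 187.5, 150.6 and 166.8 CPM in EV_DOX. These groups lie on top of each other (log2 -0.02, SE 0.109, adjusted p = 0.895). Nr1d1 and its neighbour Thra, a thyroid hormone receptor gene, share 263 exon bases on opposite strands, 8.55% of the exon bases of Nr1d1, and the strand setting of the counting is not given in the sources used here. Thra itself fell from 75.8 to 76.8 CPM in EV_DOX to 49.6 to 57.8 CPM in DUX_DOX (log2 -0.52, SE 0.0792, adjusted p = 0.000303).

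The PAR bZIP factors were both lower in DUX_DOX, and Tef passed the test. Tef had 212.9, 199.5 and 185.7 CPM in DUX_DOX, 269.4, 241.5 and 289.7 CPM in EV_DOX, 244.4, 258.2 and 266.1 CPM in DUX and 301.5, 297.3 and 297.8 CPM in EV. All DUX_DOX libraries were below the other 9, and the 3 EV libraries were above the other 9. Tef fell by 25.3% from EV_DOX (log2 -0.42, SE 0.0853, edgeR adjusted p = 0.00261), with the call lost without the 4 libraries numbered 3 (log2 -0.31, adjusted p = 0.114).

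Dbp, a strongly rhythmic output of the clock in many tissues, had 68.9, 46.0 and 73.4 CPM in DUX_DOX against 100.1, 63.4 and 103.9 CPM in EV_DOX. EV_DOX 2 lies inside the range of DUX_DOX, so the groups overlap. The log2 fold change was -0.51 (SE 0.194) and edgeR's adjusted p was 0.0703. DESeq2 gave an adjusted p of 0.0330, and leaving out EV_DOX 2 gave log2 -0.73 with adjusted p = 0.00999, in a range of 0.00400 to 0.236 over the alternatives. Dbp shares 539 of its 2993 exon bases with Sphk2 on the opposite strand, and Sphk2 had log2 0.46 (adjusted p = 0.0398), the opposite sign, with its call lost in 12 of 24 alternatives (range 0.00104 to 0.296).

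**Figure D1:**
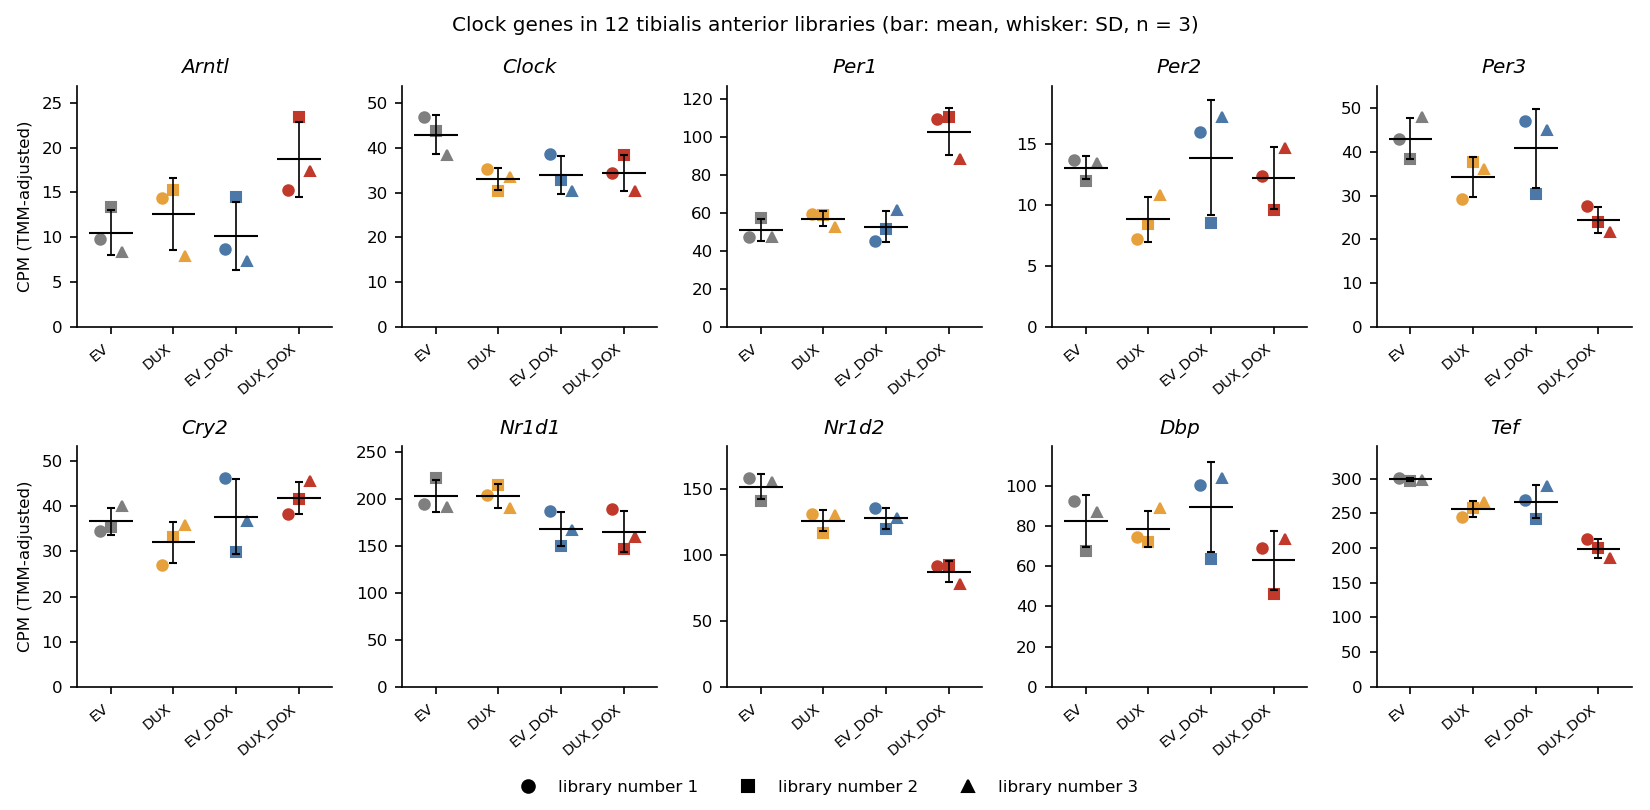
Level of each of the 10 clock genes in TMM-adjusted CPM (vertical axis, from 0) in the 4 groups (horizontal axis). Points are single libraries with the shape giving the library number, the bar is the mean and the whisker the SD of 3 libraries. Per1 stands at 88.6 to 110.3 CPM in DUX_DOX and no higher than 61.4 CPM elsewhere, while Nr1d2, Tef and Per3 are lowest in DUX_DOX.

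Markers of macrophages moved with the same contrast. Of the 10 macrophage markers 8 were higher in DUX_DOX than in EV_DOX and 0 lower, beside 14.9% and 10.3% of all genes. The median log2 fold change of the markers was 1.12, and no marker was at 0 counts in any library. Their summed level was 242 to 352 CPM in DUX_DOX, 93.7 to 140 CPM in EV_DOX, 140 to 155 CPM in DUX and 105 to 156 CPM in EV. Smooth muscle and fibro-adipogenic markers each had 1 gene called higher, and endothelial and satellite cell markers each had 1 called lower. The other cell type lists had 0 called. The part of any cell type in the changes of the clock genes was not tested.

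DUX_DOX against DUX asks what doxycycline chow does in muscle that carries the Dux vector. It shares the DUX_DOX libraries with the comparison above, so the 2 sets of calls are not independent. Per1 rose and Nr1d2, Tef and Per3 fell, 4 of 10 members, beside 29.6% of all genes called (16.5% higher, 13.1% lower). The groups did not overlap in 7 of 10 members, against 48.6% of all genes.

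By value, Per1 was 1.81-fold higher in DUX_DOX than in DUX (log2 0.85, SE 0.121, edgeR adjusted p = 0.00016). Nr1d2 fell by 30.8% (log2 -0.53, SE 0.0895, adjusted p = 0.000602), close to its change against EV_DOX. Tef fell by 22.2% (log2 -0.36, SE 0.0853, adjusted p = 0.00595), a call lost without all libraries numbered 2 (0.0596) or all numbered 3 (0.111). Per3 fell by 28.9% (log2 -0.49, SE 0.158, adjusted p = 0.0302), and this call was lost without DUX 2 (adjusted p = 0.112), DUX 3 (0.0880), DUX_DOX 2 (0.0799), DUX_DOX 3 (0.117), all libraries numbered 2 (0.0829) or all numbered 3 (0.232).

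Arntl had a log2 fold change of 0.58 against DUX (SE 0.27, adjusted p = 0.120), and the groups touch at 15.3 CPM. Nr1d1 was lower in each DUX_DOX library than in each DUX library, at 147.2 to 189.8 CPM against 190.7 to 215.8 CPM, with log2 -0.30 (SE 0.109) and adjusted p = 0.0518, just outside the threshold. It passed in 10 of 23 alternatives, DESeq2 (0.0275), limma-voom (0.0477), RLE scaling (0.0441) and upper-quartile scaling (0.0358) among them, in a range of 0.0150 to 0.300. Cry2 was at 38.3 to 45.5 CPM in DUX_DOX and 27.0 to 35.8 CPM in DUX, also without overlap, at log2 0.38 (SE 0.143, adjusted p = 0.0562), and passed in 3 of 23 alternatives (range 0.0143 to 0.212). Per2, Dbp and Clock overlapped, with log2 fold changes of 0.47 (adjusted p = 0.150), -0.32 (0.229) and 0.06 (0.733).

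**Figure D2:**
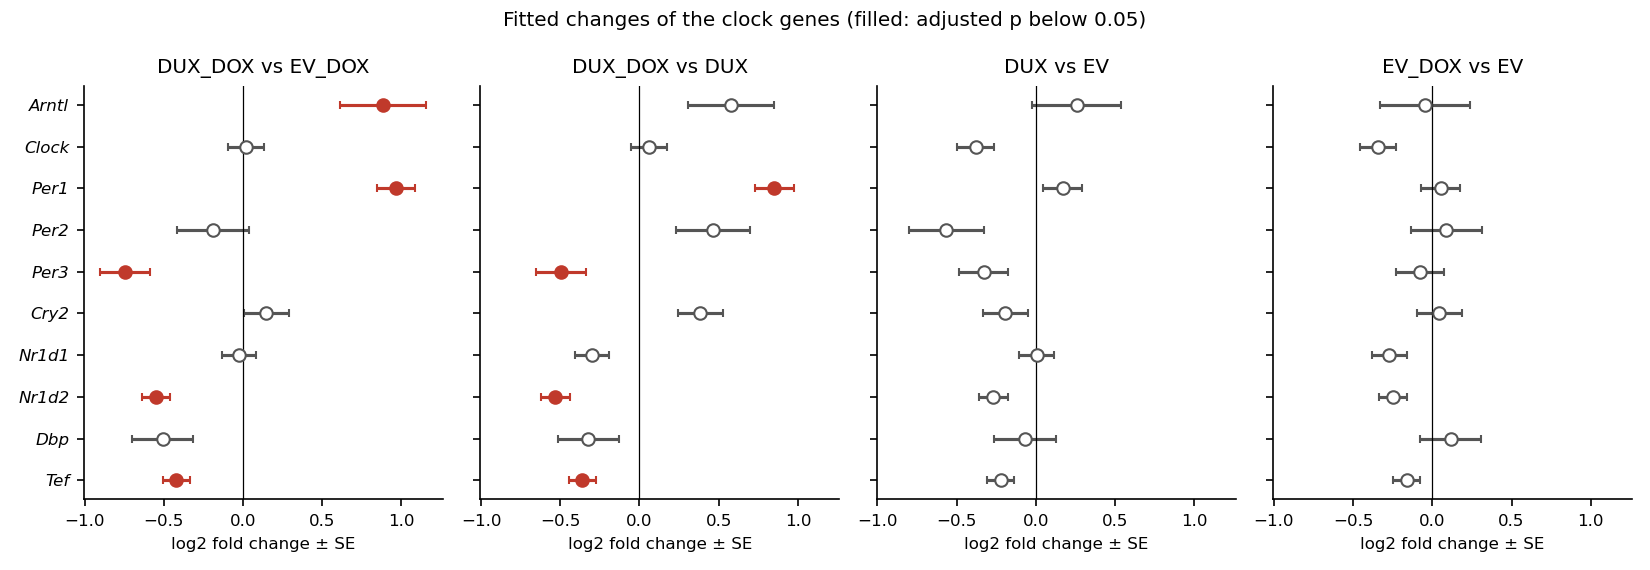
Fitted log2 fold change of each clock gene (horizontal axis, point with SE whisker) in 4 comparisons, with filled points for edgeR adjusted p below 0.05. Filled points appear in both comparisons of DUX_DOX, 5 against EV_DOX and 4 against DUX, and in neither comparison without DUX_DOX libraries.

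DUX against EV shows the Dux vector on normal chow, a measure of what the vector does without the drug. No gene of the table passed edgeR's test (0 of 12751), while 2012 genes (15.8%) had an unadjusted p under 0.05. The limma-voom fit called 0, and DESeq2 called 153 of the 5335 genes to which it gave an adjusted p. No member was called, 4 had an unadjusted p under 0.05, and 5 of 10 did not overlap between the groups, against 22.9% of all genes. Clock was at 35.3, 30.4 and 33.4 CPM in DUX and 46.9, 43.8 and 38.4 CPM in EV (log2 -0.38, SE 0.114, adjusted p = 0.206). Nr1d2 had log2 -0.27 (adjusted p = 0.217), Tef -0.22 (0.250), Per2 -0.57 (0.270) and Per3 -0.33 (0.320), all with lower values in all 3 DUX libraries.

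EV_DOX against EV shows doxycycline chow in muscle with the empty vector. Here 5 genes of the table were called (0.0392%) and 0 members, with 999 genes (7.83%) and 3 members at an unadjusted p under 0.05 by edgeR. DESeq2 and limma-voom called 0 members. Nr1d1, Nr1d2 and Tef did not overlap between the groups, 3 of 10 against 12.1% of all genes. Nr1d1 was at 187.5, 150.6 and 166.8 CPM in EV_DOX and 195.3, 223.1 and 191.7 CPM in EV (log2 -0.27, SE 0.109, adjusted p = 0.587). Nr1d2 had log2 -0.25 (adjusted p = 0.541), Tef -0.16 (0.667) and Clock, with overlapping groups, -0.34 (0.526).

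The interaction, (DUX_DOX minus EV_DOX) minus (DUX minus EV), tests whether the Dux vector difference depends on chow. It was called in 1 of 10 members, Per1, at log2 0.80 (SE 0.172, edgeR adjusted p = 0.00988). Over all genes 10.4% were called (6.97% positive, 3.43% negative), so the share of members called is near that of all genes. Of the genes called 67.0% had a positive interaction, a share of 56.9% under upper-quartile scaling. Per1 kept its call under the alternatives planned, with adjusted p from 0.00103 to 0.0341, and lost it without all libraries numbered 1 (0.0558) or numbered 2 (0.167). For the other 9 members no interaction was called: Clock had 0.40 (adjusted p = 0.127), Nr1d2 -0.28 (0.166), Per3 -0.42 (0.243), Dbp -0.44 (0.325) and Arntl 0.63 (0.327).

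The order of the group means differed by gene. For Tef and Nr1d2 it ran EV, EV_DOX, DUX and DUX_DOX from high to low, at 298.9 ± 2.26, 266.9 ± 24.2, 256.3 ± 11 and 199.4 ± 13.6 CPM for Tef and 151.7 ± 9.43, 127.7 ± 8.07, 126.0 ± 7.99 and 87.2 ± 7.94 CPM for Nr1d2 (SD, n = 3). EV_DOX and DUX overlap in both. Per1 ran from EV (50.7 ± 5.83 CPM) through EV_DOX (52.6 ± 8.18) and DUX (56.9 ± 3.77) to DUX_DOX (102.7 ± 12.3), and the 3 lower groups do not differ beyond their spread. Arntl ran from EV_DOX (10.15 ± 3.804 CPM) and EV (10.5 ± 2.54) to DUX (12.5 ± 4.03) and DUX_DOX (18.7 ± 4.19), again with overlap among the lower 3.

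Within groups, Arntl and Dbp varied with the library number. The library numbered 2 was highest of its group for Arntl and lowest for Dbp in all 4 groups. Over all genes, 1.33% were highest in number 2 in every group and 1.03% lowest. Per2 and Nr1d2 were lowest in number 2 in 3 of the 4 groups. Other numbers gave such orders too, also in 3 of the 4 groups. Arntl, Clock and Per1 were lowest in number 3, and Cry2 in number 1. Per2, Cry2 and Dbp were highest in number 3, and Clock and Nr1d2 in number 1. The share of all genes with an order kept in 3 groups was not computed. The labels do not say what libraries of a number share.

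The spread within groups also differed by gene. The biological coefficient of variation was 23.0% for Arntl, 18.9% for Per2 and 16.8% for Dbp, and 8.28% for Tef and 8.39% for Nr1d2. Taken by number, the log2 difference of Dbp between DUX_DOX and EV_DOX was -0.54, -0.46 and -0.50 for numbers 1, 2 and 3. The same differences for Arntl were 0.82, 0.69 and 1.22, and all 3 were positive. For Per1 they were 1.27, 1.11 and 0.53. Signs were mixed for Cry2 in the same comparison (-0.27, 0.47 and 0.30), and also for Clock, Per2 and Nr1d1. Between DUX and EV they were mixed for Dbp (-0.31, 0.09 and 0.03), Arntl and Nr1d1. The numbers were not taken to pair the libraries.

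**Figure D3:**
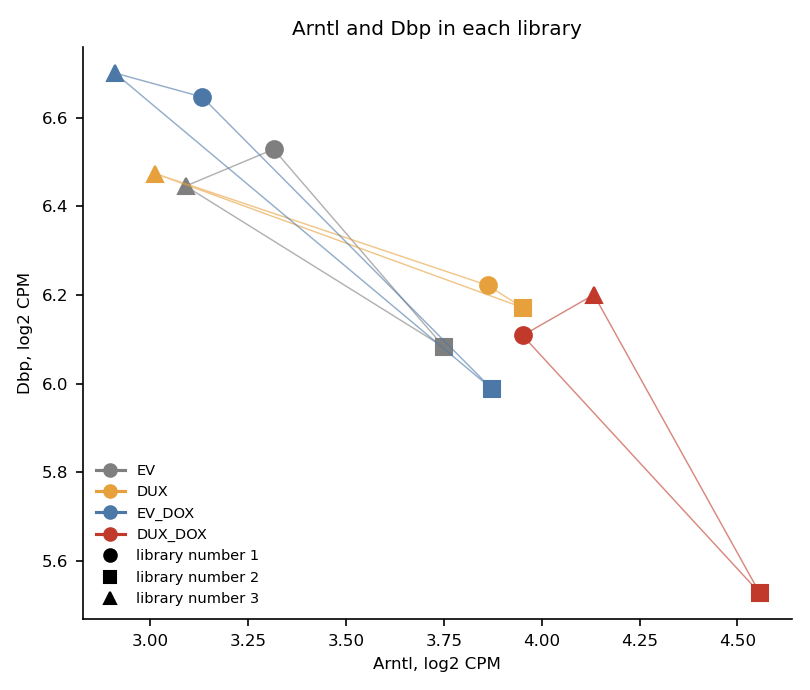
Dbp against Arntl, each in log2 CPM (prior count 2), with 1 point per library. Colour gives the group, shape the library number, and lines join the 3 libraries of a group. In each group the square, library number 2, is farthest right (Arntl highest) and lowest (Dbp lowest).

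Other genes of the loop were read from a list of 13, of which 12 were tested. In DUX_DOX against EV_DOX 1 was higher and 1 lower, with a median log2 fold change of -0.19, beside 25.3% of all genes called. The one that rose was Nfil3, also called E4bp4, which represses through the same D-boxes that Dbp and Tef activate. It had 21.03, 17.7 and 16.7 CPM in DUX_DOX, 4.82, 8.06 and 7.12 CPM in EV_DOX, 10.3, 10.3 and 10.5 CPM in DUX and 5.96, 10.5 and 5.98 CPM in EV. All DUX_DOX libraries were above the other 9.

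Nfil3 rose 2.78-fold over EV_DOX (log2 1.47, SE 0.209, edgeR adjusted p = 0.000172) and 1.79-fold over DUX (log2 0.84, adjusted p = 0.00671). Both calls were kept under every alternative computed. Its interaction of vector and chow was log2 1.00 with adjusted p = 0.0476, and 15 of 23 alternatives put it outside the threshold, in a range of 0.0218 to 0.161. Hlf, the third PAR bZIP factor, fell by 27.3% from EV_DOX (log2 -0.46, SE 0.151, adjusted p = 0.0389), and 9 of 24 alternatives did not call it (range 0.0132 to 0.136). Cry1, the other cryptochrome, had log2 0.13 (adjusted p = 0.466).

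Proteins that modify the clock proteins were read from 2 lists. Over all genes 14.9% were called higher and 10.3% lower in DUX_DOX against EV_DOX. Of 13 kinase and phosphatase genes 1 was higher and 2 were lower (median log2 0.05). Csnk1d, the casein kinase that phosphorylates PER proteins, rose (log2 0.26, adjusted p = 0.0284), Prkaa2, a catalytic subunit of AMPK, fell (log2 -0.59, adjusted p = 0.00124), and Ppp1cb, a catalytic subunit of protein phosphatase 1, fell (log2 -0.31, adjusted p = 0.0329). The calls of Csnk1d and Ppp1cb were each lost in 9 of 24 alternatives, with adjusted p up to 0.256 and 0.342, and that of Prkaa2 in 0 of 24. Of 19 ubiquitin and cofactor genes tested 4 were higher and 3 lower (median log2 0.06). Sirt1, a deacetylase that acts on the clock, rose 1.62-fold (adjusted p = 0.00409), Fbxw11, an F-box protein that recognises PER proteins, 1.26-fold (0.00409) and Sfpq, a partner of PER complexes, 1.43-fold (0.00771), and Cul4a, a ubiquitin ligase scaffold, fell by 20.9% (0.00279). Each of these 4 lost its call when all libraries of some number were left out, with adjusted p up to 0.0604 for Sirt1, 0.0762 for Fbxw11 and 0.151 for Sfpq, and with a log2 of -0.26 for Cul4a.

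Genes known to follow the clock in tissues were read from a list of 15, which shares genes such as Nfil3 and Hlf with the loop list. In DUX_DOX against EV_DOX 3 were higher and 4 lower (median log2 -0.22), beside 14.9% and 10.3% of all genes. Por, the electron donor of cytochrome P450 enzymes, rose 1.72-fold (log2 0.78, adjusted p = 0.000124). Ucp3, a mitochondrial carrier of muscle, fell by 51.3% (log2 -1.04, adjusted p = 0.0116) and Klf9, a transcription factor that is also induced by glucocorticoids, by 27.4% (log2 -0.46, adjusted p = 0.0127). Ucp3 was not called without EV_DOX 3 (adjusted p = 0.0566), nor Klf9 without DUX_DOX 3 (0.0655), without number 2 (0.0626) or without number 3 (0.195).

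Per1 is also a known glucocorticoid target, and 14 glucocorticoid responsive genes were read beside it. Of these 6 were higher and 3 lower (median log2 0.21), beside 14.9% and 10.3% of all genes. The metallothioneins Mt2 and Mt1 rose 16.7-fold (log2 4.07, adjusted p = 4.78e-06) and 4.23-fold (log2 2.08, adjusted p = 2.49e-05), Errfi1, a feedback inhibitor of EGF receptor signalling, 3.59-fold (log2 1.84, adjusted p = 2.62e-08) and Cebpd 2.05-fold (log2 1.04, adjusted p = 0.000977). The 3 that fell were Sgk1, a kinase (log2 -0.53, adjusted p = 0.00182), Klf15, a transcription factor (log2 -0.59, adjusted p = 0.0171), and Klf9. Klf15 was not called without EV_DOX 2 (0.0599), DUX_DOX 2 (0.0564), DUX_DOX 3 (0.0796), all numbered 2 (0.0918) or all numbered 3 (0.152). Fkbp5, Tsc22d3 and Zbtb16 did not pass, at log2 0.08 (adjusted p = 0.772), -0.25 (0.0621) and -0.34 (0.200). Sgk1, Klf15 and these 3 were named after their values were seen, and genes of this list respond to other signals as well. Neither of 2 cold-inducible RNA binding protein genes was called.

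**Figure D4:**
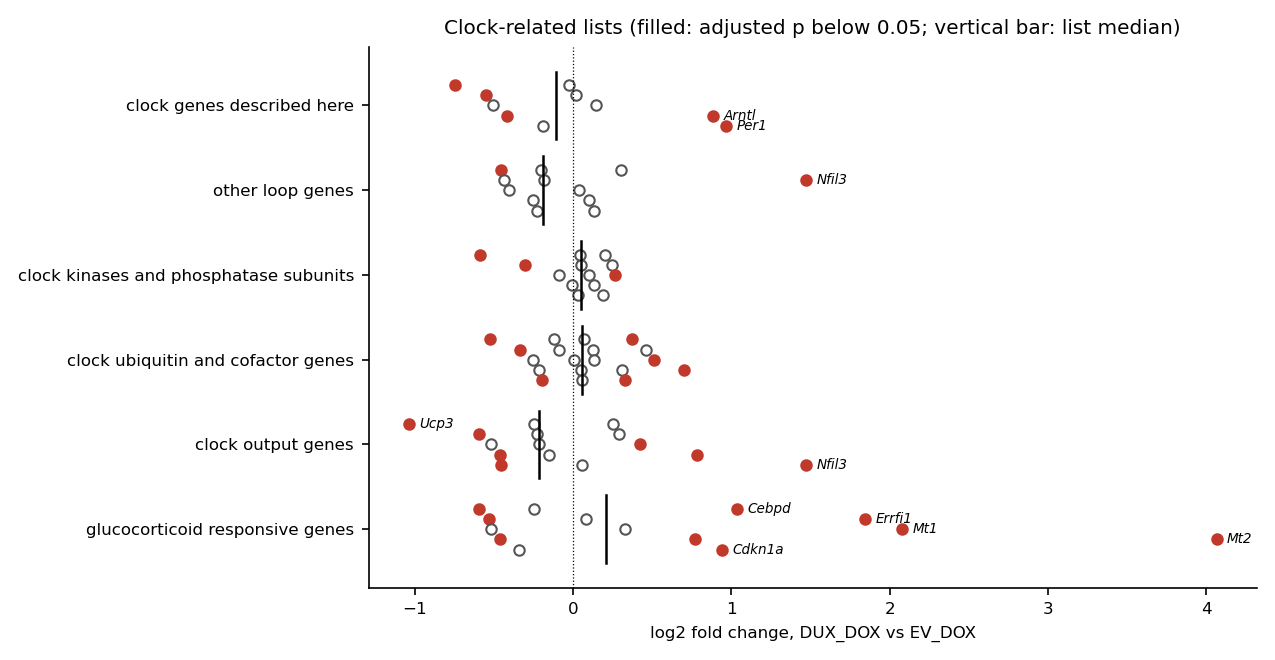
Fitted log2 fold change in DUX_DOX against EV_DOX (horizontal axis) of the clock genes and of 5 related lists, with 1 point per gene, filled for edgeR adjusted p below 0.05, and a vertical bar at the list median. The list medians lie between -0.22 and 0.21 while single genes such as Nfil3 (1.47) and Mt2 (4.07) lie far to the right.

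The genes whose profile over the 12 libraries was nearest to that of Arntl, among 9349 genes with a mean of at least 5 CPM, were Sf3b4, Golt1b, Rbm15b and Pcgf1. Their root mean square distances from Arntl were 0.203, 0.266, 0.281 and 0.288 in log2 CPM, each profile centred on its own mean, while Arntl itself lay 0.499 from its mean. Sf3b4 was at 8.35 to 9.01 CPM in DUX_DOX and no higher than 6.62 CPM elsewhere. For Dbp the nearest were Gm44386, Cyb5rl, Rasa4 and P2ry2, at distances of 0.127, 0.160, 0.174 and 0.174, with Dbp 0.313 from its mean. Rasa4 was at 29.5 to 36.0 CPM in DUX_DOX and 39.2 to 50.1 CPM in the other 9 libraries.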

How the data were processed

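Read counts per gene were measured by poly-A RNA-seq of 200 ng of RNA from each of 12 muscles, 3 per group, per the labels. The authors deposited raw counts for 12752 genes, and the submitters' processing notes name bcl2fastq 2.17.1.14, STAR, featureCounts and GRCm38. No source used here gives the versions of STAR and featureCounts, the annotation, the strand setting or a filter on rows. Mean counts of the genes start at 10. Columns were mapped to groups by name, no column was left out, and libraries of a group differed by more than sampling noise.

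All genes were fitted together with edgeR 4.0.16 in R 4.3.3 (quasi-likelihood F test, two-sided, TMM factors, default filter on low counts, 1 mean per group, 12 libraries). This left 12751 genes, with a median biological coefficient of variation of 10.6% and 6.12 prior degrees of freedom. Adjustment for multiple tests followed Benjamini-Hochberg over all genes of a contrast, at a threshold of 0.05. Log2 fold changes and their standard errors were read from this fit (prior count 0.125). CPM were computed from TMM-adjusted library totals. The labels do not name the animal of each library. By the protocol a mouse gives 1 muscle per vector, so the muscles of a group would come from different mice. The p-values describe the spread between libraries.

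The members, the lists and the motif letters were chosen with earlier results of these data known. The rule for names took all 10 members in every contrast, up to 4 called genes of each other list by smallest p, and the 4 genes nearest to Arntl and to Dbp. Gene models came from GENCODE M21 on GRCm38, and promoters from RefSeq on GRCm38.p6. The alternatives were RLE and upper-quartile scaling, no filter, a mean of at least 1 CPM, DESeq2 1.42.0, limma-voom (limma 3.58.1), a fit of only the groups compared, the library number as a block and leaving out libraries. The test was checked on simulated data with known changes. The simulated libraries were independent, so the check does not cover libraries that share a mouse or a number effect. Annotation and figures used Python 3.11.15, pandas 2.3.3 and matplotlib 3.10.9.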

Additional observations from a re-analysis of the deposited data

Results flagged for a closer look

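Per1 was called for an interaction of vector and chow, as were 10.4% of all genes. The log2 difference between DUX_DOX and EV_DOX exceeded that between DUX and EV by 0.80 (SE 0.172, edgeR adjusted p = 0.00988), with log2 0.97 on doxycycline chow and 0.17 on normal chow. The call was lost without all libraries numbered 1 (edgeR adjusted p = 0.0558) or all numbered 2 (0.167).

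Nfil3 gave an interaction of log2 1.00 (SE 0.300, edgeR adjusted p = 0.0476), with 16.7 to 21.03 CPM in DUX_DOX, 4.82 to 8.06 CPM in EV_DOX, 10.3 to 10.5 CPM in DUX and 5.96 to 10.5 CPM in EV. The call was lost in 15 of 23 alternatives.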

How the results depend on the processing

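Of the member results over all alternatives, 1088 kept their direction and their side of the threshold, 18 lost a call, 23 gained one and 41 changed sign. Per1 and Nr1d2 kept their calls against EV_DOX and DUX in every alternative. The cause of the other changes was not tested.

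With upper-quartile scaling Clock in DUX_DOX against EV_DOX changed from 0.02 to -0.015, and with only the groups compared Nr1d1 in DUX against EV from 0.00 to -0.001. With only the groups compared, 7 members were called in DUX_DOX against DUX, in place of 4. In DUX against EV DESeq2 called 153 genes, of 5335 to which it gave an adjusted p, in place of 0 of 12751. In EV_DOX against EV, 5 genes were called in the fit reported, 1 with upper-quartile scaling, 12 with DESeq2, 0 with limma-voom, 0 with only the groups compared and 0 with the replicate block.

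Leaving out libraries, 1 at a time or all of a number (the latter chosen after seeing the data), gave 1223 to 3355 genes called in DUX_DOX against EV_DOX (3224 in full), 1798 to 4158 in DUX_DOX against DUX (3772), 0 to 118 in DUX against EV (0, with 118 without EV 2), 0 to 10 in EV_DOX against EV (5) and 255 to 2148 in the interaction (1326). Members called ran from 2 to 6 against EV_DOX, 2 to 6 against DUX and 0 to 2 in the interaction. Log2 fold changes that changed sign, all uncalled, ranged as follows. In DUX_DOX against EV_DOX, Clock ran from -0.12 to 0.13, Cry2 from -0.022 to 0.38, Fkbp5 from -0.17 to 0.21, Zbtb16 from -0.58 to 0.008 and Nr1d1 from -0.13 to 0.061. In DUX_DOX against DUX, Clock ran from -0.11 to 0.15. In DUX against EV, Dbp ran from -0.19 to 0.056 and Nr1d1 from -0.039 to 0.075. In EV_DOX against EV, Arntl ran from -0.38 to 0.16, Cry2 from -0.18 to 0.19, Dbp from -0.009 to 0.32, Per1 from -0.12 to 0.19, Per2 from -0.091 to 0.35 and Per3 from -0.20 to 0.11. The interaction of Nr1d1 ran from -0.14 to 0.057.

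Libraries of the same number did not all deviate together over all genes (correlations of -0.11, 0.18 and 0.12 between EV and DUX, and -0.11, 0.09 and 0.01 between EV_DOX and DUX_DOX), so the numbers were not taken to pair the samples. Over the 10 members the same correlations were -0.10, 0.68 and 0.83, and 0.27, 0.85 and 0.42. Within chow, only 3 of 6 and 2 of 6 libraries correlated best with their own number over the members, and whether same-numbered muscles share a mouse is not stated. Between chows, same-number correlations over the members ran from 0.424 to 0.857 for EV with EV_DOX and 0.325 to 0.721 for EV with DUX_DOX. They ran from -0.748 to 0.778 for DUX with EV_DOX and -0.352 to 0.507 for DUX with DUX_DOX. With the replicate block 3040 genes and 6 members were called in DUX_DOX against EV_DOX, Dbp being added (log2 -0.50, adjusted p = 0.00594), and 3626 genes and 6 members in DUX_DOX against DUX, with Arntl (0.0179) and Dbp (0.0331) added. In the interaction 1108 genes and 1 member were called. A block within each chow gave 2817 genes and 6 members against EV_DOX.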
